A study of Mus musculus with 6 samples.

Results

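In mouse embryonic stem (ES) cells, 40 genes had a transcript that passed a set intensity on every array of a line that keeps 1 working copy of Dicer. That transcript read near the floor of the measurement on every array of a line with none. The arrays carried 18193 genes that could be named singly, so the 40 genes are 0.22% of them. They were chosen on the measured values: a probe set, the group of short probes that reads 1 transcript, had to reach an intensity of 64 in all 3 Dicer +/- arrays and stay below 32 in all 3 Dicer -/- arrays. It also had to be annotated to a single gene, and each gene was represented by its brightest qualifying probe set. The difference between the lines is therefore what defines the 40 genes, and it is described here without a test.

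The study compared 2 undifferentiated ES cell lines on Affymetrix arrays, with 3 arrays for each line. The Dicer +/- line is D4, called heterozygous here; the Dicer -/- line, called null, is 27H in the sample titles and 27H10 in the series title. RNA was total RNA, labelled by in vitro transcription. Each genotype is 1 line, so genotype and line cannot be told apart, and it is not stated whether replicate arrays stand for separate cultures. The spread between arrays, and any p-value built on it, may thus be technical. In bulk RNA, fewer cells with a transcript and less of it per cell cannot be told apart.

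Dicer is the ribonuclease that cuts hairpin precursors into mature microRNAs, which pair with messenger RNAs and lower their level and translation. A line without Dicer makes no Dicer-dependent microRNA. ES cells in the undifferentiated state hold many lineage genes at low or background levels.

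Intensities are in arbitrary units on a linear scale. On each array, 56.9% to 60.3% of probe sets were at 32 or more, and the median probe set read 49.0 to 52.7 in heterozygous and 44.9 to 46.5 in null arrays. Scaling the arrays to 1 median left 29 of the 40 genes. Dicer1 itself read 1098 ± 39.2 in heterozygous and 1197 ± 62.2 in null arrays (SD, n = 3; limma adjusted p 0.222), and the deleted stretch of the gene is not stated, so this probe set checks nothing about the genotype. The ES cell label held in both lines: Sox2 was at 8992 ± 765 in heterozygous and 9854 ± 1124 in null arrays, Nanog at 5813 ± 68.9 and 6146 ± 36.7, and Pou5f1 at 13643 ± 381 and 12509 ± 612.

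The 40 genes were of modest abundance. Their mean intensity in heterozygous cells ran from 72.4 to 374 with a median of 103, which is between the 48.3 and 69.8 percentile of all singly named probe sets. Values below 32 carry no order, so changes are given with every value under 32 raised to 32. On that scale the 40 genes were 2.25-fold to 11.6-fold lower in null cells, with a median of 3.17-fold, and 11 of them were at least 4-fold lower. The rule alone fixes a change of at least 2-fold. The 40 are 0.39% of the 10242 genes with a probe set at 64 or more in every heterozygous array. Applied to any 5 of the 6 arrays, the same thresholds were met by 58 to 70 genes; the 40 are among them by construction, since fewer arrays only loosen the rule. The same rule turned round, on in null and low in heterozygous cells, was met by 42 genes.

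**Figure D1:**
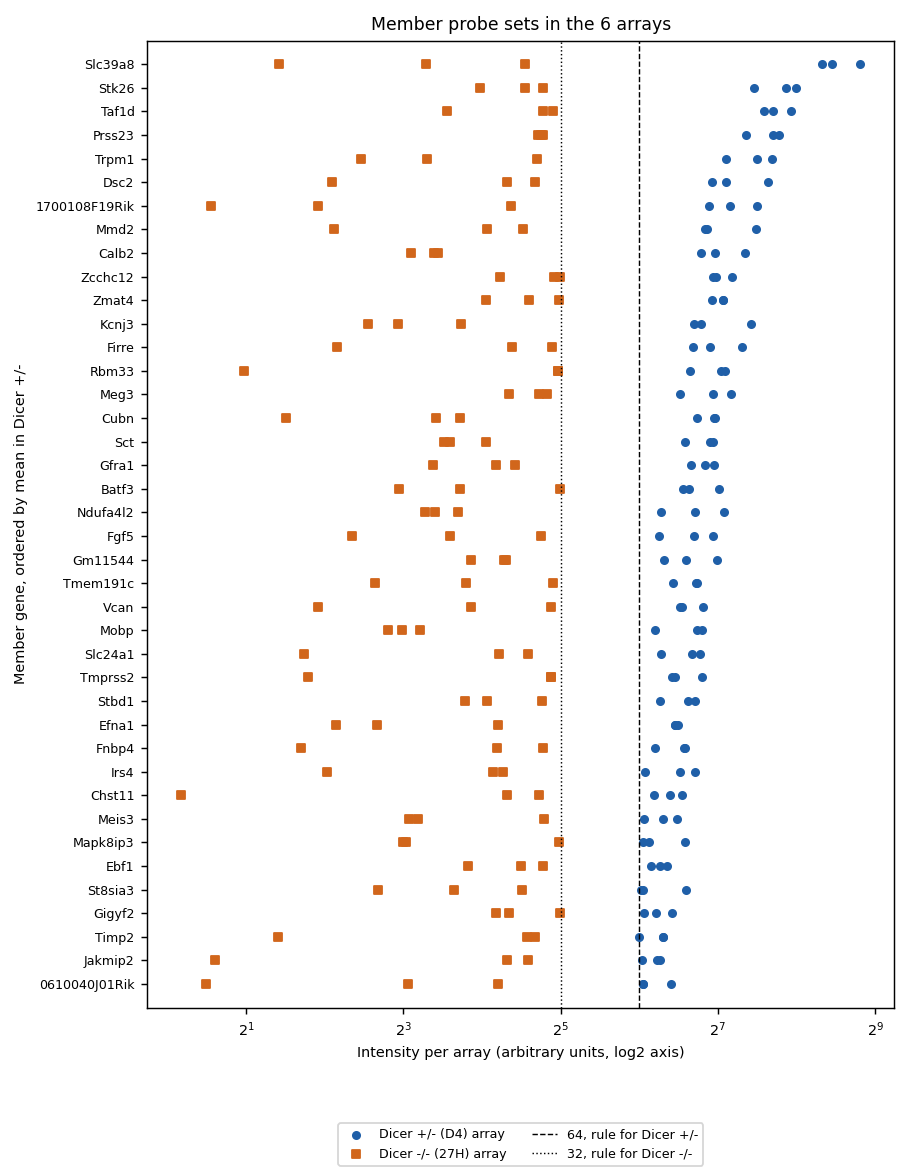
Intensity of the 40 chosen probe sets on each array (log2 axis, arbitrary units), with circles for the 3 Dicer +/- arrays, squares for the 3 Dicer -/- arrays, and lines at the 2 thresholds, 64 and 32. The empty band between 32 and 64 is made by the rule; Slc39a8 stands highest, with a heterozygous mean of 374.

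The arrays of the heterozygous line were not ordered alike for all genes. The highest value fell in replicate 1 for 20 genes, in replicate 3 for 15 and in replicate 2 for 5. The coefficient of variation over the 3 heterozygous arrays had a median of 16% and ran from 1.54% for Efna1 to 28.8% for Kcnj3. Over 6800 probe sets of other genes in the same range of intensity the median was 13.8%.

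Many of the genes sit close to the thresholds. Just inside the upper one were Timp2, with a lowest heterozygous value of 64.01, St8sia3 (64.76), Jakmip2 (65.47), Mapk8ip3 (66.11) and 0610040J01Rik (66.17). Just outside it were Faim2 (63.96), Gal (63.88), Cdca7 (62.29), Mtmr11 (62.09) and Hnrnpr (62.01). At the lower threshold, the highest null value was 31.92 for Zcchc12, 31.84 for Gigyf2, 31.80 for Batf3, 31.68 for Zmat4 and 31.62 for Mapk8ip3. Hs6st2 (32.17), 9130008F23Rik (32.26), Acbd7 (32.50), Arhgap45 (32.63) and Cacng8 (32.87) missed it by as little. The genes on either side of a threshold differ by less than the spread between arrays.

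At double the heterozygous threshold only 5 genes were left: Slc39a8, Stk26, Taf1d, Prss23 and Trpm1. At the other end, 5 of the chosen probe sets stayed below 16 in every null array, those of Calb2, Kcnj3, Cubn, Ndufa4l2 and Mobp. Values under 32 have no order, so this does not set these genes apart from the others.

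Among channels and transporters, 4 genes met the rule. Slc39a8, which encodes ZIP8, an importer of zinc and manganese, was the brightest of all 40. It read 351, 322 and 450 in heterozygous replicates 1, 2 and 3 and 23.4, 2.68 and 9.78 in the null replicates, 11.6-fold lower. The lowest heterozygous array was far above the highest null array. Its other probe set met the rule as well and is the 1 qualifying probe set beyond the 40, at 110 ± 31.9 against 3.3 ± 1.22 (SD, n = 3).

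Trpm1 encodes a cation channel of retinal bipolar cells and melanocytes. It read 138, 181 and 206 in heterozygous arrays and 9.86, 25.9 and 5.53 in null arrays, 5.4-fold lower. The other 3 probe sets of Trpm1 were low in both lines, with no array above 46.9, so a single probe set carries this gene's pattern. Kcnj3, the GIRK1 subunit of potassium channels opened by G proteins, read 104, 110 and 171 against 13.3, 5.87 and 7.65. Its brighter probe set was at 201 ± 26.8 and 34.5 ± 12.5 (SD, n = 3), which misses the rule only because null arrays passed 32. Slc24a1, a sodium, calcium and potassium exchanger of rod photoreceptors, was 2.98-fold lower, from 96.3 ± 16.3 to 15.3 ± 10.8.

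Of the genes for ligands, receptors and their adaptors, 6 were members. Fgf5, the growth factor that marks the formative and primed epiblast, read 123, 104 and 76.1 in heterozygous and 12.1, 5.07 and 26.9 in null arrays. Its brighter probe set was at 339 ± 45 and 52.3 ± 16.4 (SD, n = 3), so both read lower in null cells and the brighter did not reach the floor. Sct, which encodes the hormone secretin, was 3.50-fold lower, and Gfra1, the GDNF co-receptor that also marks spermatogonial stem cells, was 3.52-fold lower, from 113 ± 11.5 to 16.6 ± 5.62.

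Efna1, a membrane-tethered ligand of Eph receptors, had the tightest heterozygous values of the 40, at 87.6, 90.1 and 87.9, against 18.4, 6.37 and 4.42 in null arrays. The second Efna1 probe set read 84.3 ± 13.5 and 24.5 ± 12.6 (SD, n = 3), a like difference from other probes. Irs4, an adaptor of insulin and growth factor receptors on the X chromosome, was 2.70-fold lower. Mmd2, a membrane protein of the progestin and adipoQ receptor family, read 180, 114 and 116 against 22.9, 16.7 and 4.34, with heterozygous replicate 1 standing above the others.

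The largest group, of 8 genes, holds proteases and their inhibitor, matrix and adhesion proteins, an endocytic receptor and enzymes that modify glycans. Prss23, a secreted serine protease, read 209, 164 and 220 in heterozygous arrays and 26.3, 27.4 and 26.9 in null arrays, 6.13-fold lower. A second Prss23 probe set went from 213 ± 80.1 to 37.5 ± 15 (SD, n = 3). The transmembrane serine protease Tmprss2 was 2.94-fold lower, and Timp2, an inhibitor of matrix metalloproteinases, read 79.1, 79.2 and 64 against 2.66, 25.6 and 23.9. Timp2 was not at the floor throughout: its brightest probe set read 274 ± 41.7 and 83.1 ± 12.6.

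Dsc2, a cadherin of desmosomes, read 138, 122 and 199 in heterozygous and 4.25, 19.9 and 25.5 in null arrays, and its second probe set 127 ± 14.5 and 28.9 ± 21.0 (SD, n = 3). Cubn, the endocytic receptor cubilin of absorptive epithelia and extraembryonic endoderm, read 107, 124 and 125 against 2.84, 13.2 and 10.7. Vcan encodes versican, a chondroitin sulfate proteoglycan, and Chst11 a sulfotransferase that acts on chondroitin. Vcan read 112, 93.2 and 92.1 against 3.76, 29.5 and 14.5, and Chst11 was 2.59-fold lower. St8sia3, a sialyltransferase, was 2.33-fold lower, from 75.8 ± 17.8 to 13.8 ± 8.23.

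The group of transcription regulators and zinc finger proteins gave 5 members. Zcchc12, a coactivator in BMP signalling encoded on the X chromosome, read 126, 123 and 145 in heterozygous and 18.8, 30.1 and 31.9 in null arrays. Zmat4, a zinc finger protein, read 134, 134 and 122 against 31.7, 24.3 and 16.6. Batf3, a leucine zipper factor of dendritic cells, was 3.32-fold lower, Meis3, a TALE homeobox factor, 2.44-fold, and Ebf1, a factor of B cell and fat cell development, 2.39-fold. Ebf1 was dim on all 5 of its probe sets, and 1 of them still read 51.5 ± 10.1 in null arrays (SD, n = 3).

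Long non-coding RNAs gave 3 members. Firre, an X-linked nuclear RNA, read 158, 119 and 103 in heterozygous and 20.8, 29.8 and 4.47 in null arrays. The chosen probe set of Meg3, the maternally expressed RNA of an imprinted domain, read 123, 92.1 and 144 against 26.5, 28.3 and 20.4. The transcript 1700108F19Rik, which has a single probe set, read 143, 181 and 118 against 3.76, 20.6 and 1.47.

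Proteins that work in the nucleus or on RNA gave 4 members, and in each case the gene was still read in null cells by other probe sets. Taf1d, a subunit of the RNA polymerase I selectivity factor, read 209, 244 and 192 in heterozygous arrays and 30, 11.8 and 27.5 in null arrays on its chosen probe set, 6.69-fold lower. Rbm33, an RNA-binding protein, read 136, 132 and 100 against 31.2, 1.97 and 31.4. Null replicate 2 stood far below the other null arrays there, but values under 32 have no order. Fnbp4, a formin-binding protein, read 96.1, 73.4 and 94.9 against 3.25, 27.5 and 18.2. Gigyf2, which acts with a cap-binding protein to repress translation, read 85.2, 74.3 and 66.5 against 20.4, 31.8 and 18.1.

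Among kinases, scaffolds and other proteins inside the cell, 7 genes met the rule. Stk26, the kinase MST4, read 176, 233 and 254 in heterozygous arrays and 27.3, 23.3 and 15.8 in null arrays, 6.82-fold lower. Calb2, the calcium-binding protein calretinin, read 163, 125 and 110 against 8.59, 10.5 and 10.9. Ndufa4l2, a mitochondrial protein induced by hypoxia, went from 106 ± 28.4 to 11.1 ± 1.74 (SD, n = 3). Mobp, a myelin protein, was 2.98-fold lower and Stbd1, which binds glycogen, 2.89-fold. The JNK scaffold Mapk8ip3 and the microtubule-associated Jakmip2 were 2.38-fold and 2.26-fold lower. The remaining 3 genes, Gm11544, Tmem191c and 0610040J01Rik, are little characterised and were 3.10-fold, 3.11-fold and 2.25-fold lower.

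A low chosen probe set did not always mean a low gene. Of the 40 genes, 29 had at least 1 other singly annotated probe set, 78 in all. Of these, 64 (82.1%) had a lower mean in null cells, against 53.4% of all singly annotated probe sets, and 42 (53.8%) had every null array below every heterozygous array, against 21.1%. Since these probe sets read the same genes in the same RNA, they are not independent of the choice and nothing is drawn from the shares.

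By what the other probe sets showed, the 29 genes fall into 3 kinds. In 11 genes (Slc39a8, Prss23, Dsc2, Firre, Kcnj3, Cubn, Tmem191c, Fgf5, Efna1, Ebf1 and Mapk8ip3) another probe set was on in every heterozygous array and none was at 64 or more in every null array. In 10 genes (Trpm1, Zmat4, Mmd2, Gfra1, Tmprss2, Mobp, Irs4, Chst11, St8sia3 and Jakmip2) no other probe set was on in every heterozygous array. In the last 8 genes another probe set read 64 or more in every null array, so the label "silent" does not describe the gene as a whole.

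Those 8 genes are Stk26, Taf1d, Meg3, Rbm33, Vcan, Fnbp4, Gigyf2 and Timp2. The other Stk26 probe set read 882, 1019 and 967 in heterozygous and 131, 112 and 148 in null arrays, a fold of 7.33 at a level well above the floor. The brightest Vcan probe set read 768 ± 65 and 328 ± 25.1, and the next 474 ± 48.2 and 106 ± 15.6 (SD, n = 3). Meg3 had 10 other probe sets. The brightest went from 2276 ± 588 to 639 ± 154, while another was at 109 ± 5.13 and 112 ± 8.86, equal within the spread. Fnbp4 kept 589 ± 37.2 in null cells on its other probe set, against 1233 ± 44.5.

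Taf1d showed the widest disagreement. Its 6 other probe sets included 1 that went from 965 ± 87.5 to 297 ± 30.4, and 1 that went from 1245 ± 37.6 to 1479 ± 197 (SD, n = 3). Rbm33 on its brightest probe set read 1831 ± 75.6 and 1317 ± 46.3, and Gigyf2 likewise 871 ± 55 and 658 ± 16.8, both far smaller differences than on the chosen probe sets. In a fit across all genes that takes 1 bright probe set for each, 802 of 12927 genes (6.20%) were called lower in null cells with limma, 934 (7.23%) were called higher, and 35 of the 40 genes were among the lower ones. With arrays centred on their medians the split was 574 lower and 1268 higher. The rule used the same contrast, so nothing is read from that count. The 5 others were Taf1d, Rbm33, Gigyf2, Tmprss2 and Ebf1, read there through probe sets other than the chosen ones, since the fit takes the probe set with the highest mean log2 value of each gene and the rule the one with the highest mean intensity among those that qualify.

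**Figure D2:**
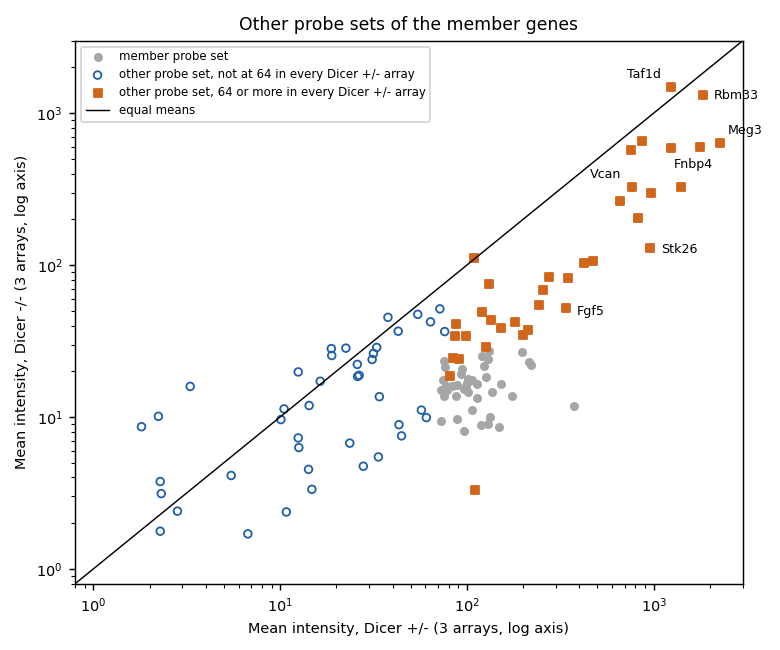
Mean intensity in Dicer -/- against Dicer +/- cells (3 arrays each, log axes) for the 40 chosen probe sets in grey and the 78 other probe sets of the same genes. Squares are the 36 others at 64 or more in every Dicer +/- array, of which 34 had a lower mean in Dicer -/- cells (54.5% of the 17459 such probe sets of all genes did); 17 were at 64 or more in every Dicer -/- array.

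The 40 genes lie on 17 chromosomes. The most were on chromosome 5 (5 genes, 12.5%, against 6.22% of the genes on the array), with 4 each on chromosomes 7 and X (10%, against 7.84% and 3.42%). The X-linked genes were Stk26, Zcchc12, Firre and Irs4. Among 428 tested X-linked genes, 49 (11.4%) were called lower in null cells with limma, against 6.20% of all genes. The median log2 difference of the tested X-linked genes was -0.15, against -0.01 for all genes. X-linked genes called higher were not counted.

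Firre and Stk26 are neighbours, with 0 annotated genes between them, and were the only pair of the 40 with at most 20 annotated genes between them. The 8 nearest tested genes on each side were read as well. Of these 16, 1 was called lower and 0 higher with limma, against 6.20% lower and 7.23% higher among all genes. At an unadjusted limma p under 0.05, 6 were lower and 2 higher. The share of all genes at that p was not counted, so nothing is read from those 2 counts. The gene called lower was Hs6st2, a heparan sulfate sulfotransferase, which went from 415, 378 and 469 to 108, 156 and 133. That is -1.68 ± 0.17 (SE) on the log2 scale (limma adjusted p 9.6e-06). On the Firre side, Zfp280c was at -0.78 ± 0.10 (limma adjusted p 5.35e-05) and Aifm1 at 0.44 ± 0.07 (limma adjusted p 0.000267), both short of the 2-fold threshold. Mbnl3, a splicing factor next to Hs6st2, was at -0.89 ± 0.14 (adjusted p 0.000298), short of the 2-fold threshold. The proteoglycan gene Gpc3 further on was at 0.74 ± 0.09 (adjusted p 3.38e-05). Smaller differences were seen at Rbmx2 (-0.47, limma adjusted p 0.00833), at Rap2c next to Stk26 (-0.39, 0.00668) and at Phf6 (-0.58, 0.03). With Aifm1 and Gpc3 higher in null cells, the low values did not extend over the whole stretch.

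**Figure D3:**
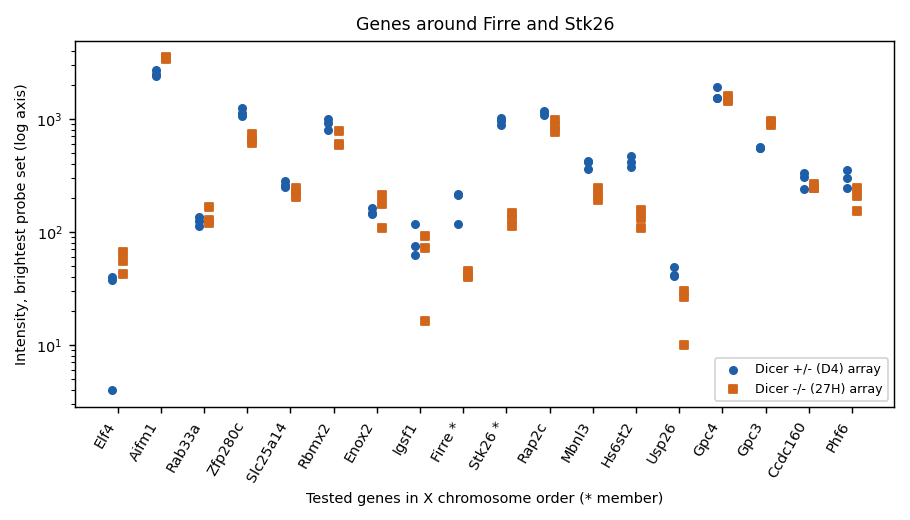
Intensity (log axis) of the brightest probe set of Firre, Stk26 (asterisks) and the 8 nearest tested genes on each side, in X chromosome order, on the 3 Dicer +/- (circles) and 3 Dicer -/- (squares) arrays. Firre, Stk26 and Hs6st2 are separated by the widest gaps, while Gpc3 is higher in Dicer -/- cells at 926 against 555.

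Promoter windows were at hand for 33 of the 40 genes, from RefSeq on GRCm38.p6, each 250 bases before to 50 after the start. CpG-rich windows, with an observed over expected CpG ratio of at least 0.6 and a GC content of at least 50%, made up 17 of 33 (51.5%), against 54.2% of 14368 genes on the array. The median CpG ratio was 0.67 in both. Genes with the same on and off pattern thus had promoters of both kinds, from Trpm1 with a ratio of 0.11 to Rbm33 with 1.14. The windows were searched on both strands for 5 motifs. The GC box GGGCGG was in 21 of 33 (63.6%, against 54.1%), CCAAT in 14 (42.4%, against 38.2%), the E-box CACGTG in 5 (15.2%, against 9.04%), TATAAA in 3 (9.09%, against 9.86%) and the CRE TGACGTCA in 1 (3.03%, against 2.69%). GC boxes and CpG richness overlap in sequence, and a match is a description of letters, not a site.

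The 150 bases before the start are shown for the CpG-poorest and the CpG-richest window, for Meg3, the single gene with a CRE match, and for the neighbours Firre and Stk26. Capitals mark the motifs just listed, on either strand.
Trpm1, chr7:64153685-64153834, plus strand: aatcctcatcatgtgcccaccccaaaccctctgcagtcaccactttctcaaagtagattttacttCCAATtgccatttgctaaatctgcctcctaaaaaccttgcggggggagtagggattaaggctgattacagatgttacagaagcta
Rbm33, chr5:28317039-28317188, plus strand: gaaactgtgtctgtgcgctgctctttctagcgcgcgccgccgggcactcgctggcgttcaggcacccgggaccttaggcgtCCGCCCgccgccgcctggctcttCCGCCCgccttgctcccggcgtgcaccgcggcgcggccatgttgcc
Meg3, chr12:109540846-109540995, plus strand: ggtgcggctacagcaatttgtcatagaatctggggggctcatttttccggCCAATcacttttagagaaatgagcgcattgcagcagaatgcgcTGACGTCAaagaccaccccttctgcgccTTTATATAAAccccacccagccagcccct
Stk26, chrX:50841221-50841370, plus strand: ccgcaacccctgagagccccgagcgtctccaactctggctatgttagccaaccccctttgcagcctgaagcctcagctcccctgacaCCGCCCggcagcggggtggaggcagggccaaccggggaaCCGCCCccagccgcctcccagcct
Firre, chrX:50635322-50635471, minus strand: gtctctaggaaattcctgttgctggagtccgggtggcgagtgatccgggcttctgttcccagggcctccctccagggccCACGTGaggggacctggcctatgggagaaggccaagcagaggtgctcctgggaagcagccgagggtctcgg
The Trpm1 stretch holds 1 CpG and the Rbm33 stretch 22. Meg3 has a CCAAT, a CRE and a TATA match in order toward the start. Stk26 and Firre, although neighbours, differ in the 150 bases shown, where Stk26 has GC boxes and Firre an E-box; in the whole 300-base windows both hold a GC box.

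Because the lines differ in Dicer, microRNA genes inside the 40 genes were looked up by position in RefSeq on GRCm38.p6. There were 5, within 3 genes, and 4 of them ran in the direction of the host: Mir211 in Trpm1, Mir770 and Mir1906-1 in Meg3, and Gm25500, the source of miR-7650, in Taf1d. The arrays read messenger and long non-coding RNA and not mature microRNAs, so only the hosts were measured. The mature sequences of miR-211 and miR-770 are shown for the 2 hosts best known to carry a microRNA, with the seed, bases 2 to 8, in capitals.
mmu-miR-211-5p, chr7:64205831-64205852, plus strand: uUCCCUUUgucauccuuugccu
mmu-miR-211-3p, chr7:64205868-64205888, plus strand: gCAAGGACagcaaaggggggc
mmu-miR-770-5p, chr12:109563710-109563731, plus strand: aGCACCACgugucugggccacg
mmu-miR-770-3p, chr12:109563744-109563765, plus strand: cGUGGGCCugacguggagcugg
No 2 of the 7 mature microRNAs on the host strand shared a seed.

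The families of the leading genes were read from the same fit. Medians over a list are log2 differences with values under 32 raised to 32, against -0.01 for all tested genes on that scale. Counts with arrays left out start from a count with the member. Those fits still asked for log2 5 or more in 3 arrays. A probe set under 32 in every null array therefore left the test whenever a heterozygous array was left out, whatever its difference. The share of all genes at an unadjusted p under 0.05 was not counted, so nothing is read from list counts at that p. Of 22 other zinc transporters, metallothioneins and their regulator, 1 was called lower and 3 higher with limma, against 6.20% lower and 7.23% higher among all genes, and the list's median with Slc39a8 was 0.02. At an unadjusted p under 0.05, 7 were lower, Slc39a8 included, and 7 higher. The 2 lower calls became 1, 1 and 0 without heterozygous replicate 1, 2 and 3. In all 3 fits Slc39a8 left by that filter, so its loss says nothing of its difference. Slc30a1, which exports zinc from the cell, rose from 1068, 910 and 816 to 2604, 2693 and 2466 (log2 difference 1.48, limma adjusted p 4.9e-07), and was at 0.82 as a mean over its probe sets. Slc39a11 rose 2.78-fold and Slc30a6 2.16-fold. Slc30a2 fell 2.11-fold, and was short of the threshold after median centring (-0.92) or without heterozygous replicate 3 (-0.96).

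Of 12 other TRP channels, 3 were called lower and 0 higher with limma, against 6.20% lower and 7.23% higher among all genes. At an unadjusted p under 0.05, 6 of the 13 with Trpm1 were lower and 0 higher. The median with Trpm1 was -0.48. The 4 lower calls became 1 without any 1 of the heterozygous arrays and 2 with values under 32 raised to 32. The probe sets of Trpm1 and Mcoln3 left by the filter in each fit without a heterozygous array, so those losses say nothing of their differences. The 3 channels were Mcoln3, Trpa1 and Trpc2, all dim. Mcoln3, a channel of endosomes and lysosomes, read 39.4, 63.2 and 72.8 against 4.20, 18.3 and 4.89, and with values under 32 raised to 32 it was 1.77-fold lower and no longer called (limma adjusted p 0.0746). Trpa1 was not called without heterozygous replicate 2 (adjusted p 0.0565) or null replicate 2 (log2 difference -0.99). Trpc2, at -1.01, lost its call in 9 alternatives, among them the fits without heterozygous replicate 1 (-0.86), heterozygous replicate 3 (-0.89) and null replicate 3 (-0.69).

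Of 15 other EF-hand calcium-binding proteins, 4 were called lower and 1 higher with limma, against 6.20% lower and 7.23% higher among all genes. At an unadjusted p under 0.05, 7 were lower and 3 higher with Calb2 counted. The median with Calb2 was -0.27. The 5 lower calls, Calb2 included, became 3, 2 and 3 without heterozygous replicate 1, 2 and 3. Calb2 and the S100a4 probe set left by the filter in each of these fits, so those losses say nothing of their differences. Efhd1, a mitochondrial calcium sensor, rose from 124 ± 14.9 to 700 ± 19.3 (SD, n = 3; log2 difference 2.51, limma adjusted p 9.16e-08). S100a13 fell 2.27-fold and S100a16 2.20-fold. S100a4, which read 55.9 ± 9.44 and 15 ± 8.08, was 1.73-fold lower with values under 32 raised to 32 and then lost its call. After median centring of the arrays S100a16 was at -0.98.

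Other melanocyte genes beside Trpm1 gave 2 lower and 1 higher of 7 tested, against 6.20% lower and 7.23% higher among all genes. The 3 lower calls with Trpm1 became 1 without heterozygous replicate 2 or 3. Trpm1 left these fits by the filter, not by its difference. In addition, Tyr and Dct, which make melanin, were below 32 on all 6 arrays. Pmel, a structural protein of melanosomes, read 573 ± 23.6 and 285 ± 47.1 (SD, n = 3; log2 difference -1.02, limma adjusted p 6.31e-05), and Mlana 169 ± 23.4 and 79.4 ± 4.24. Both are at the edge of the threshold: with arrays centred on their medians they were at -0.87 and -0.93. Pmel was also short of it without heterozygous replicate 3 (-0.99), null replicate 1 (-0.97) or null replicate 3 (-0.94), and Mlana without heterozygous replicate 2 (-0.97). Rab27a, which carries melanosomes and other vesicles, rose 2.55-fold, and was at 0.62 as a mean over its probe sets.

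Some primitive endoderm markers fell beside Cubn. Of 14 others tested, 5 were called lower and 1 higher with limma, against 6.20% lower and 7.23% higher among all genes. At an unadjusted p under 0.05, 8 were lower and 1 higher with Cubn counted. The median with Cubn was -0.73, or -1.15 on values as deposited. Dab2, an endocytic adaptor that works with cubilin, read 606, 617 and 827 in heterozygous and 179, 141 and 144 in null arrays, which is -2.13 on the log2 scale (limma adjusted p 9.27e-07). Amn, which anchors cubilin in the membrane, fell from 189 ± 23.4 to 76.9 ± 21.5 (SD, n = 3; -1.33, adjusted p 0.00108). Lama1 fell 3.40-fold and Gata6 2.66-fold with values under 32 raised to 32, and Col4a1, a basement membrane collagen, was at -1.05. Sparc, a matrix glycoprotein, was the gene called higher, at 1.01 (limma adjusted p 9.6e-07). It lost the call as a mean over probe sets and without heterozygous replicate 3, null replicate 1 or null replicate 2. Sparc and Col4a1 were named after their values were seen. The summed level of the 17 markers on the array was 14651 to 14781 in heterozygous and 16034 to 17177 in null arrays. Sparc was the only tested marker with a higher value in null cells, so the higher sum does not describe the other tested markers. Ttr was below 32 throughout. The part of such cells in the values of Cubn was not tested.

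**Figure D4:**
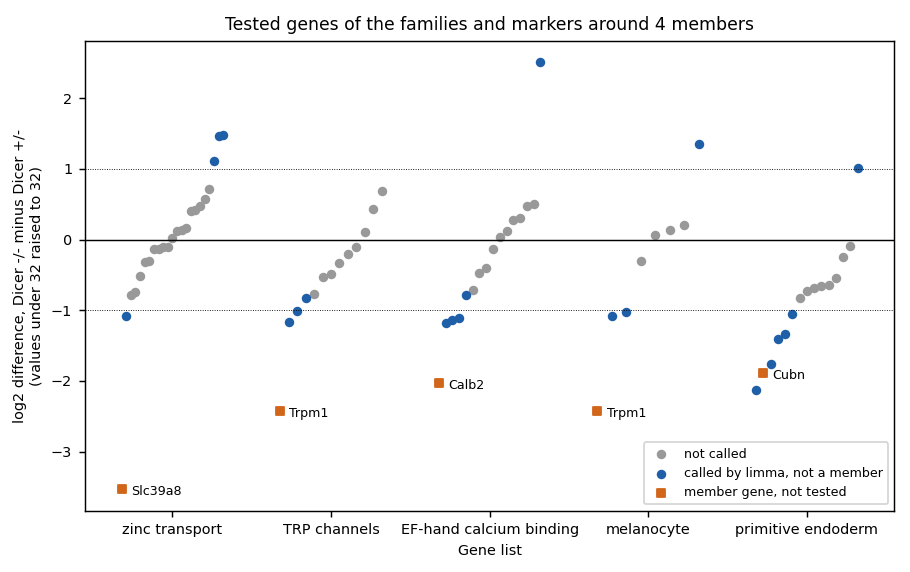
Differences between the lines (log2, Dicer -/- minus Dicer +/-, values under 32 raised to 32) for the tested genes of 5 lists, with member genes as squares, genes called by limma outside the members in blue and genes not called in grey. Slc39a8 stands apart from the other zinc transporters at -3.53, whereas Cubn at -1.89 lies among other lower primitive endoderm markers. Members were chosen on these same arrays for being low in Dicer -/- cells, so their distance from the other genes is not a result.

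Markers of further cell types moved in both directions. For every list that follows, the shares called among all genes were 6.20% lower and 7.23% higher. Of feeder fibroblast markers, 1 of 11 tested was called lower and 1 higher, with a summed level of 7662 to 8284 in heterozygous and 8444 to 8681 in null arrays, and Fap and Postn below 32 throughout. Trophectoderm markers gave 2 lower and 1 higher of 13 (sums of 12739 to 14007 and 7663 to 8110; Elf5 below 32 throughout), and mesoderm and endothelium markers 1 lower and 2 higher of 8 (1561 to 1799 and 2648 to 3111; Tie1). Of 10 neural markers 0 were lower and 3 higher with limma, and at an unadjusted p under 0.05 0 were lower and 5 higher (sums of 10407 to 10892 and 12005 to 13135; Neurog2 and Snap25). Germ cell markers gave 3 lower and 5 higher of 13 (2834 to 3030 and 4005 to 4327; Sycp2). The named genes of these lists were Col1a1, a collagen, 2.05-fold lower with values under 32 raised to 32, and Dcn, decorin, 6.61-fold higher. Krt18, a keratin, fell 2.76-fold and Cdx2 2.09-fold, while Tead4 rose 2.63-fold. Flt1 fell 4.23-fold, and Pecam1 rose 4.13-fold and Evx1 2.52-fold. Pax6, Map2 and Ncam1 were 3.81-fold, 2.96-fold and 2.40-fold higher. Sohlh2, Hormad1 and Asz1 were 4.71-fold, 3.65-fold and 1.41-fold higher, and Sycp1 3.34-fold lower. The calls of Col1a1, Cdx2, Tead4, Flt1, Evx1, Ncam1 and Asz1 were each lost under at least 1 alternative. Whether such cells take part in the values of the 40 genes was not tested. Pluripotency genes gave 2 lower and 0 higher of 18, with 9 lower and 3 higher at an unadjusted p under 0.05, genes of retinoic acid handling 1 lower and 1 higher of 14, and inhibitors of Wnt signalling 3 lower and 2 higher of 13. Lin28a, which binds let-7 precursors, fell from 5094 ± 292 to 864 ± 86.5 (SD, n = 3; limma adjusted p 5.48e-09) and Dppa4 2.01-fold. Crabp1 was 5.26-fold lower and Stra8 2.95-fold higher. Axin2 and Dkk1 were 3.56-fold and 2.60-fold lower, and Notum and Sfrp1 4.12-fold and 3.10-fold higher. Dppa4, Crabp1 and Stra8 each lost the call under at least 1 alternative.

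The genes outside the 40 whose pattern over the 6 arrays was most like their mean were Cd24a, Brd8, Mtm1, Timm8a1 and Dnmt3a, with Pearson correlations of 0.9993 to 0.9989 on log2 values with the floor. With 6 arrays in 2 groups, such values rest on the difference between the lines and on a small spread within each. The levels were unlike: Mtm1 read 14880 and 2717 on average, and Brd8 394 and 203.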

How the data were processed

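RNA of 2 ES cell lines was hybridised to 6 Affymetrix arrays, 3 for each line; the deposited table gives 1 linear intensity for each of 45101 probe sets. Per the submitters' processing notes GCRMA was used, with a role not given in the sources used here; the deposited intensities share a trimmed mean of 498 on every array. There are no detection calls, so a low value cannot be called absent. Probe sets were named through the platform annotation, and 34945 had a single gene. The members and gene lists were chosen with earlier results of these data known.

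For genes outside the members, log2 intensities were fitted with limma 3.58.1 in R 4.3.3 (lmFit, eBayes with trend), after keeping log2 values of 5 or more in at least 3 of 6 arrays and, for each gene, the probe set with the highest mean log2 value, 12927 genes. A call needed a Benjamini-Hochberg adjusted p under 0.05 and a change of 2-fold or more, null against heterozygous. The fit was tested on simulated data. Genes were named by a rule: members by brightness, by other probe sets read in null cells and by nearness to a threshold; up to 4 called genes of each list; 4 label checks; and the 5 most alike genes. Genes beside Firre and Stk26 were added by position. Symbols, promoters and microRNAs came from RefSeq tables on GRCm38.p6. Alternatives covered the thresholds, filter, floor, scaling, probe set choice, replicate block and each array left out.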

Additional observations from a re-analysis of the deposited data

How the results depend on the processing

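The number of member genes, 40, depends on the thresholds: 5 with the heterozygous threshold doubled, 6 with below 16 and 373 with below 64 in null arrays, 23 when the brightest probe set of each gene was taken first, and 58 to 70 with 1 array left out. It was 30 after quantile normalization, 29 with arrays scaled to one median and 32 without probe sets of shared sequence, all of them among the 40. A filter of log2 7, which tests fewer genes, left 525 genes called lower and 20 lower in the lists; 13 list genes were higher without shared-sequence probe sets. Leaving out 1 heterozygous array gave 629 to 663 lower and 935 to 956 higher genes, and 22 lower and 19 to 22 higher in the lists. Leaving out 1 null array gave 812 to 845 lower and 848 to 858 higher genes, and 30 to 32 lower and 18 to 20 higher in the lists. The filter still asked for 3 arrays, so genes on only in the line that lost an array left the test. These ranges mix that loss with the influence of the array. Centring arrays on their medians moved the median of all genes from -0.01 to 0.14 (log2), and gave 0.03 for Pou5f1, which was not called; the cause was not tested. The members' log2 differences could not reverse, and could not move without a null array, because the rule and the floor fix both; all 40 moved with a floor of 64 or none.

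With the replicate number as a block, 809 genes were lower and 937 higher, and 32 and 20 in the lists. Deviations of same-numbered arrays correlated at 0.16, 0.06 and 0.34. Heterozygous replicate 2 correlated best with null replicate 1 (0.13). Heterozygous replicate 3 correlated at -0.26 and -0.15 with null replicates 1 and 2, and null replicate 3 at -0.23 and -0.16 with heterozygous replicates 1 and 2. The labels do not say whether arrays of 1 number were handled together, and these values do not settle it. Values under 32 limit every fold: those in null cells have no order.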
